A study of Mus musculus with 6 samples.

Results

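Lipoxygenases are iron enzymes that add molecular oxygen to polyunsaturated fatty acids such as arachidonate and linoleate. The products feed into local signals (leukotrienes, hydroxy fatty acids) and, in stratified epithelium, into the lipid layer that coats dead surface cells. The 7 genes described here are Alox5, Alox8, Alox12, Alox12b, Alox12e, Alox15 and Aloxe3, taken by gene name from a table of 55421 genes. The members were selected on gene name after the KO and WT values of this same table were known, among them the low Alox15 values of KO, so their KO and WT values are given as a description and no p-value is attached to any member.

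Tongue epithelium of 6 mice was sequenced from the 3' end of each mRNA, 1 library per mouse. The KO group is 3 mice of genotype K14CreERT2 IRE1 F/F, in which the keratin 14 promoter, active in basal keratinocytes, drives a tamoxifen-inducible Cre that acts on floxed alleles of the unfolded protein sensor Ire1α (gene Ern1). The WT group is 3 IRE1F/F mice, which carry the floxed alleles with no Cre in the label, and the series' design text calls the groups littermates. Mice of both groups received tamoxifen by intraperitoneal injection on 4 days in a row, were harvested on day 5, and had the mucosa peeled off after 10 minutes in protease and collagenase at 37 °C. By its title, the study asks what Ire1α does in renewal and differentiation of this tissue. The age of the mice was not given in the sources used here. Recombination is inherited, so keratinocytes that descend from recombined basal cells carry the deletion after they stop using the promoter, while cells of other lineages are not targeted.

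Libraries held 4606309 to 6286153 reads. The 15 markers of tongue keratinocytes summed to between 869887 and 1176018 normalised read counts in KO and between 642518 and 872698 in WT, led by Krt13 and Krt4. The sum hides a split. Krt6a, Krt6b, Krt16, Krt14, Krt5, Krt36, Sprr1a and Dsg3 were higher in KO without overlap, Krt15 and Trp63 were lower, and the other markers overlapped. With limma 0 of the 15 were called. Whether this split plays a part in any lipoxygenase value was not tested. The libraries also held other tissue, since 14 skeletal muscle markers, led by Ttn and Myh4, summed to 3206 in KO replicate 1, against 143 to 644 in the other libraries. Fibroblast markers (7 genes) summed to 213 to 1076 in KO and 1362 to 1877 in WT, without overlap. In every library but KO replicate 1, nearly all of that sum was Dcn, which was called lower in KO (limma adjusted p = 0.0152). Dcn had 530, 195 and 544 in KO replicates 1 to 3 and 1658, 1329 and 1856 in WT replicates 1 to 3. Col1a2, the next most abundant, was highest in KO replicate 1 at 235, against 5.22 to 21.7 in the other libraries. Col1a1 and Col3a1 were also highest in KO replicate 1, at 190 and 102, against at most 14.3 and 7.62 elsewhere. Whether fibroblast content plays a part in any lipoxygenase value was not tested. The sums for Langerhans and T cells (H2-Aa, Cd74) and for salivary gland (Amy1, Muc5b) overlapped between groups. Ern1 had 78.0, 117 and 123 in KO replicates 1 to 3 and 102, 105 and 77.1 in WT replicates 1 to 3. The reads come from the 3' end of the transcript, and whether that end lies in the deleted stretch was not given, so these values do not test the genotype. Of 10987 genes tested with limma over all genes, 134 were higher and 64 lower in KO at an adjusted p under 0.05, which is 1.8% of tested genes (1.22% as higher in KO). By edgeR 1.73% and by DESeq2 3.35% of the same genes passed. Values below are normalised read counts unless another scale is named. The kit makes 1 tag per mRNA, so the counts are not divided by transcript length, and levels of different genes are comparable only as far as their 3' ends were counted alike. In bulk tissue, fewer cells of a type and less RNA per cell cannot be told apart.

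All members but Alox5 lie on mouse chromosome 11. By GENCODE M21 on GRCm38, Aloxe3 (chr11:69125896-69149115, plus strand), Alox12b (chr11:69156989-69169792, plus strand) and Alox8 (chr11:69183932-69197843, minus strand) stand within 71.9 kb of each other. Alox12 (chr11:70241457-70255353), Alox12e (chr11:70315610-70322628) and Alox15 (chr11:70344152-70352031), each on the minus strand, stand within 110.6 kb, and a gap of 1044 kb parts these 3 from the first 3. Alox5 is on chromosome 6 (chr6:116410077-116461178, minus strand). No other annotated gene overlapped the body of a member.

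RefSeq promoter windows on GRCm38.p6, reaching from 250 bases before to 50 bases after the RefSeq gene start, matched 5 of the 7 members, Alox15 and Aloxe3 being the exceptions. The RefSeq starts of Alox12e and Alox12b lie inside the GENCODE gene bodies given above, so their windows reach further into those bodies. The 2 windows shown are given in the direction of transcription. They belong to members whose normalised KO and WT values did not overlap, Alox12e (chr11:70322481-70322780, minus strand) and Alox5 (chr6:116461129-116461428, minus strand). Capitals mark a GC box, the letters GGGCGG.
Alox12e: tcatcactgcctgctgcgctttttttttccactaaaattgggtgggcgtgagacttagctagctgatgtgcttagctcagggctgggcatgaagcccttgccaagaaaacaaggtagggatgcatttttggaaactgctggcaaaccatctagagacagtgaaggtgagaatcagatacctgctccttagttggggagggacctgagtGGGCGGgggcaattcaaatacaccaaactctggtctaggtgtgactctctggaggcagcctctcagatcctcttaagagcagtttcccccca
Alox5: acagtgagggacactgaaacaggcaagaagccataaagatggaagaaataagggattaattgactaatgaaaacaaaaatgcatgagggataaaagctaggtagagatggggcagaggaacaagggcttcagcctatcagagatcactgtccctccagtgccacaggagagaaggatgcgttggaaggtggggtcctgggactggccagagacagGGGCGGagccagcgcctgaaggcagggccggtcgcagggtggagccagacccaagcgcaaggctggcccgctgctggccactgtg

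On either strand, each of the 5 windows held at least 1 GC box, with 1 in Alox5, Alox8 and Alox12e and 3 in Alox12 and Alox12b. Of 32851 promoter windows of the same length, 35.7% held one. The other motifs searched were the TATA box TATAAA (13.6% of all windows), the gamma-activated site TTCNNNGAA (8.30%), the STAT6-type site (6.95%), which has 1 more base in its spacer, and the interferon response core (3.44%). None of these 4 motifs stood in the 5 member windows.

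The family was dominated by the epidermal pair. Alox12b and Aloxe3 made up 57.6% ± 3.34 and 38.8% ± 3.70 of the summed lipoxygenase values in KO and 54.9% ± 3.82 and 39.2% ± 5.52 in WT (SD, n = 3 each). Summed over the 7 genes, the level was 5540 ± 631 in KO and 5272 ± 542 in WT, so the family total differed by less than its spread. By the mean of the 6 libraries the order of levels was Alox12b, Aloxe3, Alox12, Alox15, Alox5, Alox8 and Alox12e. Alox12b was above Aloxe3, and Aloxe3 above Alox12, in 6 of 6 libraries, while Alox12 was above Alox15 in 5 of 6, the exception being WT replicate 2. The places below Alox12 were not stable across genotypes. Alox15 was above Alox5 in 3 of 3 WT libraries and in 0 of 3 KO libraries, and the pairs Alox5 with Alox8 and Alox8 with Alox12e kept their order in 4 of 6 libraries each.

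**Figure D1:**
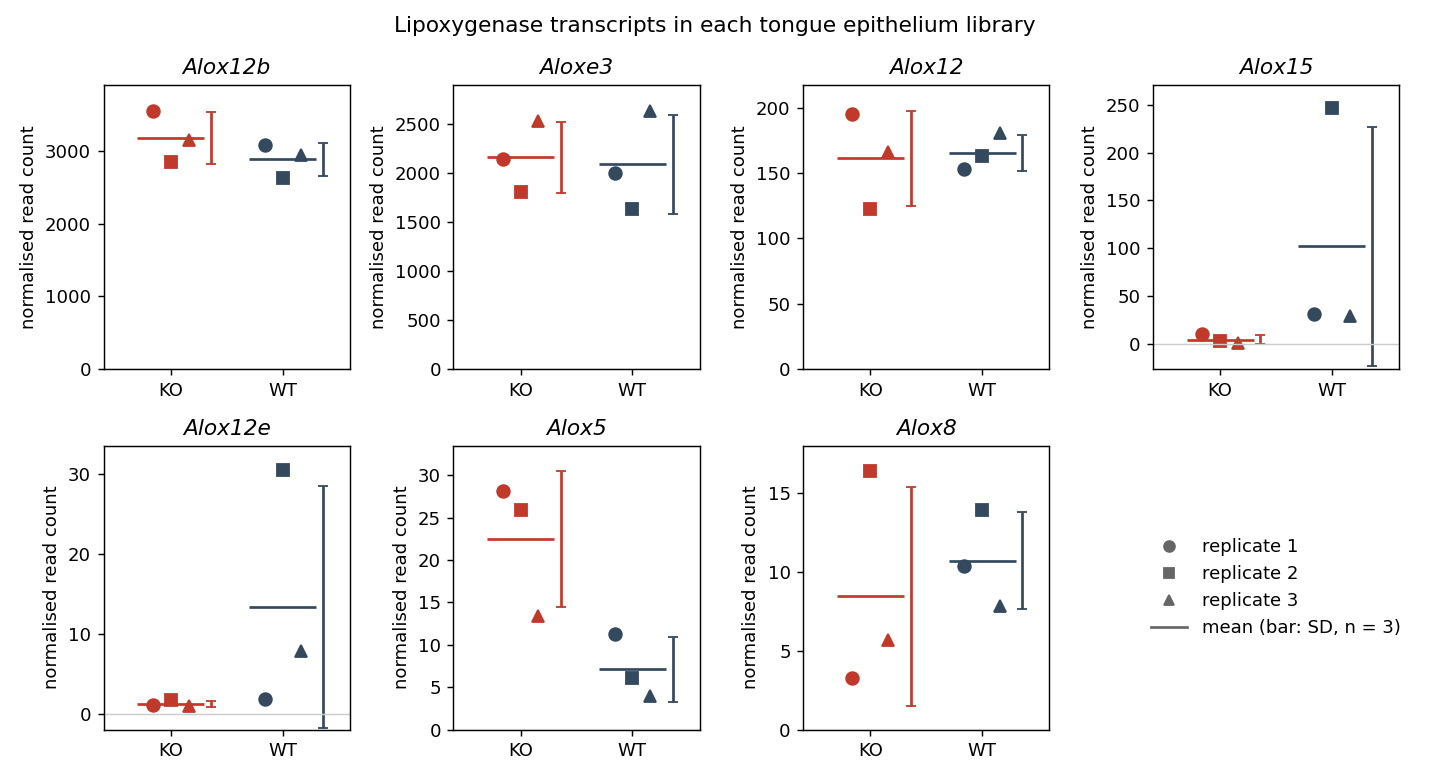
Normalised read count (y axis, linear, one scale per panel) of the 7 lipoxygenases in KO and WT libraries (x axis), with marker shape for the replicate number, a line for the mean and a side bar for the SD of 3 mice. Alox12b, Aloxe3 and Alox12 overlap between groups, Alox15 and Alox12e lie lower in KO with WT replicate 2 far above the rest, and Alox5 lies higher in KO.

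Alox12b encodes the lipoxygenase that oxidises linoleate bound in the acylceramides of epidermis, and its product is passed to the enzyme of Aloxe3. Loss of either gene causes ichthyosis in people. Alox12b had 3557, 2845 and 3156 in KO replicates 1 to 3 and 3081, 2633 and 2949 in WT replicates 1 to 3. The groups overlapped, and KO replicate 1 was the highest library. The fitted log2 fold change on the log2(value + 1) scale was 0.14 ± 0.18 (SE), with a 95% interval of -0.25 to 0.53.

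Aloxe3 encodes a hydroperoxide isomerase that turns the Alox12b product into an epoxy alcohol. It had 2143, 1799 and 2527 in KO replicates 1 to 3 and 1998, 1631 and 2630 in WT replicates 1 to 3. In both groups replicate 3 was highest and replicate 2 lowest. The SD within a group (364 in KO, 506 in WT) was larger than the difference between the group means, 2157 in KO and 2086 in WT. The log2 fold change was 0.06 ± 0.22 (SE), interval -0.42 to 0.54.

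Alox12, the platelet-type lipoxygenase that is also made in keratinocytes, had 195, 122 and 166 in KO replicates 1 to 3 and 153, 163 and 180 in WT replicates 1 to 3. The highest and the lowest library were both KO, and the log2 fold change was -0.06 ± 0.21 (SE), interval -0.53 to 0.40. Reads behind these 3 genes numbered 138 to 3312 per library. Markers of platelets and megakaryocytes summed to 62.9 to 114 in KO and 51.8 to 81.0 in WT over 6 genes, of which Gp1ba was at 0 throughout. Most of that sum came from Itga2b and Gp1bb, and the part of such cells in the Alox12 level was not tested.

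Alox15 was lower in every KO library than in any WT library. In mouse this gene encodes the leukocyte-type lipoxygenase of resident macrophages and eosinophils, which oxidises arachidonate and linoleate also while they are bound in membranes. It had 9.75, 2.59 and 0.953 in KO replicates 1 to 3, from 9, 3 and 1 reads, and 31.1, 246 and 28.7 in WT replicates 1 to 3, from 33, 282 and 22 reads. WT replicate 2 stood far above the other WT libraries, and the SD of the WT group (125) exceeded its mean (102).

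The ratio of group means was 23.0 (WT over KO), 6.75 without WT replicate 2 and 57.6 without KO replicate 1. The fitted log2 fold change was -3.87 ± 0.83 (SE), interval -5.70 to -2.04. Alox15 was the 1 member past the limma threshold over all genes, of 6 tested, where 0.583% of tested genes were past it as lower in KO. It passed the filter on low values, at least 10 in at least 3 libraries, through its WT libraries alone, so nothing is read from that count. Leaving out KO replicate 1, KO replicate 2, KO replicate 3 or WT replicate 2 ended the call, with log2 fold changes of -4.55, -3.75, -3.31 and -2.87. A pseudocount of 5, equal library totals, quantile normalisation, robust variance moderation and a term for library name style also ended it, with Alox15 lower in KO in each. Libraries were named by digits in KO replicate 1 and WT replicates 1 and 2 and by a letter in the others. That style is uneven across the groups, and what it stands for was not given. Since the family was chosen with these values known, the settings show how the value moves and lend it no support. The authors' deposited table of 341 called genes holds Alox15 and no other member, with a log2 fold change of -4.54 and a standard error of 1.29, the 13th lowest of its 142 genes lower in KO.

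**Figure D2:**
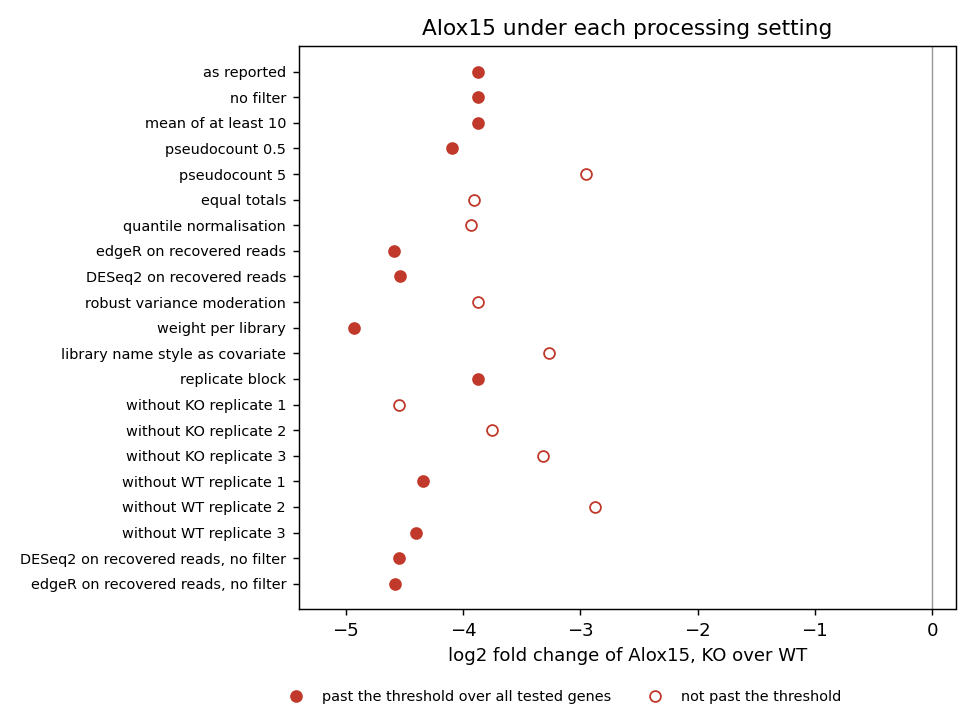
Fitted log2 fold change of Alox15, KO over WT (x axis), under each processing setting (y axis), with filled points past the threshold over all tested genes and open points not past it. Values run from -4.93 with a weight per library to -2.87 without WT replicate 2.

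Alox12e, the epidermis-type lipoxygenase that adjoins Alox15 at a gap of 21.5 kb, was also low in KO but rested on few reads. It had 1.08, 1.72 and 0.953 in KO replicates 1 to 3, from 1, 2 and 1 reads, and 1.88, 30.5 and 7.84 in WT replicates 1 to 3, from 2, 35 and 6 reads. WT replicate 1 was close to the KO libraries and WT replicate 2 was again the highest. In pooled reads the ratio was 11.3 (WT over KO), with an exact 95% interval of 4.12 to 43.5 that covers counting error only. Without WT replicate 2 the ratio of means was 3.88. Alox12e reached 10 in 1 of 6 libraries and was not tested with the filter. With no filter its log2 fold change was -2.06 ± 0.77 (SE) and it was not past the limma threshold, which 1.1% of 21778 genes passed with no filter. Also with no filter, edgeR gave -3.31 and put Alox12e past its threshold, as it did 3.38% of genes, and DESeq2 gave -3.42 and did not, with 2.97% of the 12484 genes that it gave an adjusted p past it.

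WT replicate 2 was also the library with the highest interferon response. The 12 markers of that list summed to 81.3, 102 and 61.0 in KO replicates 1 to 3 and 252, 3552 and 614 in WT replicates 1 to 3, led by Isg15 and Ifi44. Of 6 tested markers, 3 (Isg15, Irf7 and Oasl2) were called lower in KO with limma, as 0.583% of all tested genes were. These 3 passed the filter on low values through their WT libraries alone, so nothing is read from that count. Markers of leukocytes in general (7 genes, led by Laptm5 and Lcp1) summed to 59.1 to 102 in KO and 58.4 to 161 in WT, with the highest sum in WT replicate 2. Of 6 eosinophil markers, Siglecf, Epx, Prg2, Ccr3 and Ear2 were at 0 in all libraries and Il5ra was above 0 only in KO replicate 3, at 0.953. By counting error alone, a 0 leaves room for an expected count of up to 3 reads, which is worth 2.59 to 3.92 depending on the library. That bound covers counting error only, and Acta1 was also listed at 0 in KO replicate 1, where Ttn was 979. How such zeros arose was not tested. The macrophage markers C1qa, C1qb and C1qc were 0.862 to 11.9, 6.67 to 8.67 and 3.45 to 7.58 in KO, and their highest values stood in WT replicate 2, at 19.2, 17.5 and 14.0. In WT replicates 1 and 3 the same genes stood between 0.942 and 5.22. The whole macrophage and monocyte list, 10 genes, went the other way, with sums of 170 to 261 in KO and 122 to 167 in WT. Its most abundant gene, Cd68, was 67.2 to 79.1 in KO and 44.5 to 73.1 in WT, lowest in WT replicate 2. Csf1r, the next, was 56.2 to 92.1 in KO and 34.9 to 44.5 in WT. Whether interferon response, leukocyte content or macrophage content plays a part in the Alox15 and Alox12e values was not tested.

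**Figure D3:**
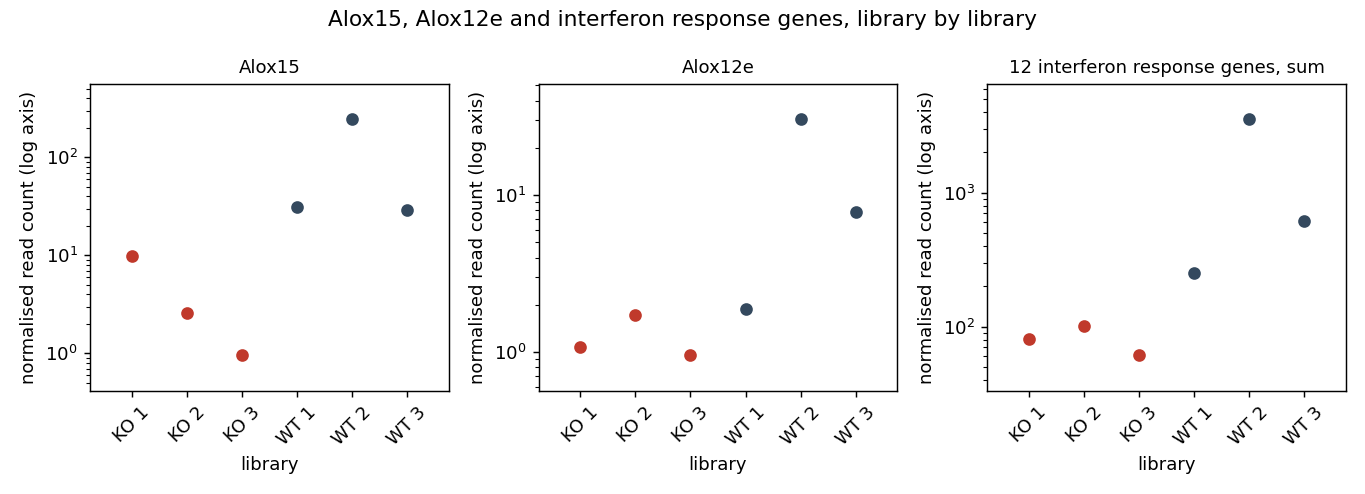
Normalised read counts (y axes, log scale) of Alox15, Alox12e and the sum of 12 interferon response genes in each library (x axis; KO red, WT grey-blue). WT replicate 2 is highest in all 3 panels, at 246, 30.5 and 3552.

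Alox5 was the member with higher values in KO. Its enzyme starts leukotriene synthesis, together with the helper protein of Alox5ap, and is known mainly from myeloid and mast cells. It had 28.2, 25.9 and 13.3 in KO replicates 1 to 3 and 11.3, 6.11 and 3.92 in WT replicates 1 to 3, from 14 to 30 reads in KO and 3 to 12 in WT. KO replicate 3 was close to WT replicate 1, but the groups did not overlap. The ratio of means was 3.16 (KO over WT). The log2 fold change was 1.57 ± 0.48 (SE), interval 0.51 to 2.63, and it was not past the limma threshold over all genes. With edgeR and no filter it was, as were 3.38% of 21778 genes, and nothing is read from that call. Alox5 reached 10, the value the filter uses, in all KO libraries but in WT only in replicate 1. In all, 3 members had groups that did not overlap in normalised values, Alox5 higher and Alox15 and Alox12e lower in KO. In reads Alox12e tied, at 2 in both KO replicate 2 and WT replicate 1, so only library scaling parts its groups. Of the 13452 genes above 0 in all libraries 18.1% had groups that did not overlap in normalised values, 9.23% with KO higher and 8.83% with KO lower. Nothing is read from that count, since the family was chosen with this comparison known.

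Markers of macrophages and monocytes, 10 genes led by Cd68 and Csf1r with Timd4 at 0 throughout, summed to 170 to 261 in KO and 122 to 167 in WT. These ranges did not overlap but nearly met, at 169.8 in KO replicate 2 and 166.7 in WT replicate 2. Within the list, Csf1r was higher in KO without overlap and Cd68 overlapped. C1qa, C1qb and C1qc were highest in WT replicate 2. Mast cell markers summed to 55.3 in KO replicate 1, with Tpsb2 at 26.0 and Cma1 at 13.0, and to between 0 and 1.31 in the other libraries. Markers of neutrophils (7 genes, led by Csf3r with Ly6g and Ngp next at equal means) summed to 0.862 to 3.25 in KO and 0 to 0.942 in WT, with Mpo, Elane, Camp and Retnlg at 0. Alox5ap was 26.0, 13.8 and 16.2 in KO replicates 1 to 3 and 12.3, 22.7 and 13.1 in WT replicates 1 to 3, and its groups overlapped. The part of myeloid or mast cells in the Alox5 values was not tested.

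Alox8, whose enzyme oxidises arachidonate in irritated mouse skin and whose human counterpart is ALOX15B, had 3.25, 16.4 and 5.72 in KO replicates 1 to 3 and 10.4, 13.96 and 7.84 in WT replicates 1 to 3. KO replicate 2 was the highest of all libraries and KO replicate 1 the lowest. The log2 fold change was -0.53 ± 0.58 (SE), with an interval of -1.81 to 0.75. It was -0.084 without KO replicate 1 and -1.10 without KO replicate 2. The values rest on 3 to 19 reads per library.

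**Figure D4:**
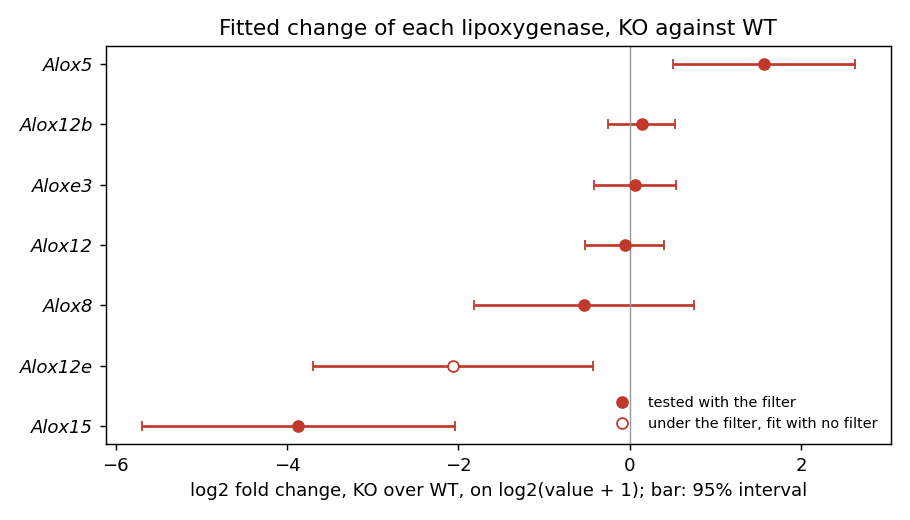
Fitted log2 fold change of each lipoxygenase, KO over WT, on the log2(value + 1) scale (x axis), with 95% intervals. Alox12b, Aloxe3 and Alox12 lie within 0.14 of 0, Alox15 lies at -3.87, Alox5 at 1.57, and Alox12e, fitted with no filter (open point), at -2.06.

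The coefficient of variation was 11.2% in KO and 7.98% in WT for Alox12b, 16.9% in KO and 24.2% in WT for Aloxe3 and 22.7% in KO and 8.41% in WT for Alox12. It was 106% in KO and 122% in WT for Alox15, the member with the widest relative spread in both groups. For Alox15 the genes with the most similar profile over the 6 libraries, by Pearson r of log2(value + 1), were Cdkn2d (r = 0.990), Plscr4 (0.989) and Birc2 (0.985). For Alox12b they were Cdk16 (0.993), Pcbp1 (0.984) and Rhog (0.981). With 6 libraries and 10987 tested genes, coefficients of this size are a description only. None of these 6 genes was past the limma threshold. Cdkn2d, a cell cycle inhibitor, had 34.7, 24.99 and 23.8 in KO replicates 1 to 3 and 42.4, 59.3 and 43.1 in WT replicates 1 to 3.

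Of 40 annotated genes within 100 kb of a member, 21 were at 0 in all libraries and 11 were tested. With limma 0 of the 11 were past the threshold, 3 had an unadjusted p under 0.05, as 13.5% of all tested genes did, and edgeR and DESeq2 called 0. Their log2 fold changes ran from -1.05 for Tmem107 to 0.79 for Slc16a11. March8, a ubiquitin ligase gene beside Alox5, had the smallest p of the 11, with 356, 342 and 407 in KO replicates 1 to 3 and 620, 439 and 691 in WT replicates 1 to 3 (log2 fold change -0.64, limma adjusted p = 0.166). Its groups did not overlap, and KO was lower. Pelp1, the nearest tested neighbour of Alox15, 1 pseudogene further along the chromosome, had 72.6, 57.7 and 54.3 in KO replicates 1 to 3 and 52.8, 79.4 and 62.7 in WT replicates 1 to 3 (log2 fold change -0.07). These neighbours were chosen after their values were seen.

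No tested gene of the wider eicosanoid pathway passed with limma. Of 42 genes for phospholipases, prostanoid and leukotriene enzymes and receptors, 22 were tested and 0 passed, 5 had an unadjusted p under 0.05 (4 higher and 1 lower in KO, against 13.5% of all tested genes in either direction), edgeR called 0 and DESeq2 called 1. The median log2 fold change was 0.13, against -0.01 over all tested genes. Ltb4r1, the high-affinity receptor for leukotriene B4, had 282, 172 and 191 in KO replicates 1 to 3 and 89.5, 126 and 125 in WT replicates 1 to 3. The groups did not overlap, with a log2 fold change of 0.90 ± 0.24 (SE) at a limma adjusted p of 0.0977, and DESeq2 called it higher (adjusted p = 0.0340). It is also in the authors' deposited table, with a log2 fold change of 0.92.

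Pla2g4e, a cytosolic phospholipase A2, was 191 ± 28.9 in KO and 110.0 ± 15.6 in WT (SD, n = 3 each; log2 fold change 0.79, limma adjusted p = 0.0897). Ptges, the inducible prostaglandin E synthase, was 124 ± 27.8 in KO and 69.1 ± 11.9 in WT (0.83, limma adjusted p = 0.127). Ptger3, a receptor for prostaglandin E2, was 154 ± 21.2 in KO and 268 ± 65.3 in WT (-0.77, limma adjusted p = 0.112). Each of these 3 had groups that did not overlap, and none passed. They were named for their small p, which favours such groups. Of the 22 tested genes of the list, 5 were higher and 4 lower in KO without overlap. Over all tested genes 19.1% did not overlap, in either direction. Lta4h, which makes leukotriene B4 from the Alox5 product, was 84.4 ± 40.0 in KO and 103 ± 40.7 in WT and overlapped. Ltc4s, which makes the cysteinyl leukotrienes, stayed at 0.953 to 6.50 in KO and 1.31 to 1.88 in WT. The receptors Fpr2 and Gpr31b were at 0 in every library.

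Around Alox12b and Aloxe3, 36 genes of ceramide synthesis and the corneocyte lipid envelope were listed, of which 34 were tested. With limma 1 was higher in KO, 0 were lower and 33 did not pass, while 9 had an unadjusted p under 0.05, 6 with higher and 3 with lower values in KO, against 13.5% of all tested genes. The median log2 fold change was 0.03. Degs2, which hydroxylates sphingolipids to make phytoceramides, had 105, 210 and 104 in KO replicates 1 to 3 and 26.4, 45.4 and 56.2 in WT replicates 1 to 3. It rose to 140 ± 61.1 in KO, against 42.6 ± 15.1 in WT (SD, n = 3 each), with a log2 fold change of 1.67 ± 0.34 (SE; limma adjusted p = 0.0387, edgeR 0.0409). The call was lost without KO replicate 1, KO replicate 2, KO replicate 3, WT replicate 1 or WT replicate 2 (highest limma adjusted p = 0.115), while the log2 fold change stayed between 1.34 and 1.90 when 1 library was left out. The authors' deposited table gives it a log2 fold change of 1.73.

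Ephx3, an epoxide hydrolase that can act on the epoxy alcohol made by the Aloxe3 enzyme, was 1128 ± 59.5 in KO and 750 ± 99.3 in WT (log2 fold change 0.59, limma adjusted p = 0.122). The sphingomyelinases Smpd3 and Smpd1 were 3019 ± 171 and 982 ± 117 in KO and 2004 ± 175 and 649 ± 103 in WT (log2 fold changes 0.59 and 0.60, limma adjusted p = 0.125 and 0.148). DESeq2 called Smpd3 (adjusted p = 0.0484). The 3 with lower values, named after their values were seen, were Flg, the precursor of filaggrin (1643 ± 455 in KO and 2696 ± 755 in WT, log2 fold change -0.71, limma adjusted p = 0.230), Acsl1, which activates fatty acids (-0.54, 0.181), and Elovl6, which extends them (-0.50, 0.248). The genes that build the substrate of the Alox12b enzyme did not pass. Elovl4, which extends its very long fatty acids, had a log2 fold change of 0.09 (interval -0.33 to 0.51), and Cers3, the ceramide synthase that uses them, 0.04 (-0.37 to 0.44). Cyp4f39 and Pnpla1, which hydroxylate and esterify the chain, had 0.19 and -0.01, and Sdr9c7, a dehydrogenase that follows Aloxe3, had -0.24.

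**Figure D5:**
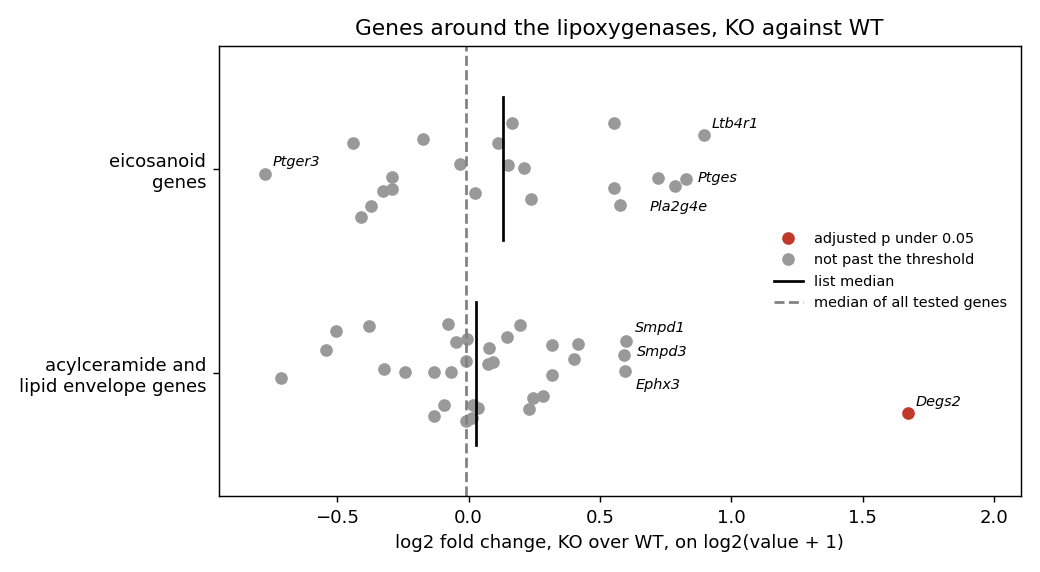
Log2 fold change, KO over WT (x axis), of the 22 tested eicosanoid genes and the 34 tested acylceramide and lipid envelope genes, 1 point per gene with vertical scatter for legibility. Solid bars mark the list medians (0.13 and 0.03), the dashed line marks the median of all tested genes (-0.01), and Degs2 is the 1 gene past the threshold.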

How the data were processed

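Libraries were made with QuantSeq, a 3' mRNA kit, per the labels' protocols. The authors deposited normalised read counts per gene and library, a signal on a linear scale. Their second deposited table lists, for genes they called, the log2 fold change, its standard error, a Wald score, a p-value and q-values. The submitters' processing notes name FastQC, STAR, featureCounts and DESeq2, with versions, genome build and strand setting not given in the sources used here. Groups and replicate numbers come from the sample titles, and 0 value columns were left unmatched. Each library's values were whole multiples of 1 step (100% to within 0.01 of a read), which recovered whole reads. The 3192 genes listed by ID with no symbol took 0.0768% to 0.119% of each library and stayed in.

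The contrast of KO over WT was fitted in R 4.3.3 with limma 3.58.1, using its intensity trend, on log2(value + 1). Genes entered if 3 or more libraries reached 10, with Benjamini-Hochberg adjustment over all tested genes at 0.05, two-sided. Fold changes on this scale understate the change of low genes. edgeR 4.0.16 and DESeq2 1.42.0 on the recovered reads were alternatives, and the fits were tested on simulated counts. The simulation changed only genes of higher mean than Alox5, Alox8 and Alox12e and held no outlying library. It therefore does not cover these members or a spread like that of Alox15 in WT. With 3 mice against 3 the smallest exact permutation p is 0.1, and no such test was made. Each mouse counted as 1 sample.

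The members, lists and tests were chosen with earlier results of these data known. The text names the members, list genes past the threshold, the 4 genes of each list with the smallest p, the 3 most similar profiles of Alox15 and Alox12b, called neighbours, the 2 most abundant markers of each list and Ern1. Other genes were named after their values were seen.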

Additional observations from a re-analysis of the deposited data

How the results depend on the processing

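The number of lipoxygenases past the threshold over all genes, 1 as reported, was 0 with a pseudocount of 5, equal totals, quantile normalisation, robust variance moderation or the library name style as a covariate. It was 0 to 1 without each library in turn. With edgeR and no filter it was 3 (Alox15, Alox12e and Alox5), where 3.38% of 21778 genes passed. Nothing is read from these counts, since the family was chosen with this comparison known. Why the count moved was not tested. The count over all genes, 198 as reported, was 368 with DESeq2, 590 with a weight per library, 82 with the name style, 371 with DESeq2 and no filter, 737 with edgeR and no filter, and 68 to 186 without each library. Eicosanoid genes numbered 1 with DESeq2, with or without a filter, 3 with weights, 4 with edgeR and no filter, and 0 without any 1 library. Acylceramide genes numbered 0 with equal totals or the name style, 2 with DESeq2, with or without a filter, 4 with weights, and 0 to 1 without each library. DESeq2 and edgeR with no filter were added after the data were seen. Alox12 changed sign with weights (0.011), without KO replicate 2 (0.12) and without WT replicate 3 (0.0032), and ran from -0.21 to 0.12 without each library. Aloxe3 changed sign with the name style (-0.028), without KO replicate 3 (-0.06) and without WT replicate 2 (-0.10), and ran from -0.10 to 0.24. With a replicate block 178 genes, 1 lipoxygenase, 0 eicosanoid and 1 acylceramide gene passed. The deviations of same-numbered libraries from their group means had r = -0.25, 0.03 and 0.28. With 3 libraries per group these coefficients cannot show whether same-numbered mice were paired, and the sample titles give only a replicate number. Alox12e, Alox8 and Alox5 rest on 1 to 35 reads per library, and Alox15 on 1 to 33 in every library but WT replicate 2 (282), which limits what can be seen.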

Other observations

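Some genes with a known role in these tissues were listed at or near 0. Tgm1, the transglutaminase of cornifying keratinocytes, was above 0 only in KO replicate 2, at 1.72, while Tgm3 averaged 18396 ± 2750 in KO and 18176.5 ± 2738 in WT (SD, n = 3 each). Acta1, the actin of skeletal muscle, was at 0 in all libraries, including KO replicate 1, in which Ttn was 979. Gpx4, which reduces lipid hydroperoxides, was 2.86 to 5.17 in KO and 5.22 to 12.2 in WT.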
